A study of Bos taurus with 6 samples.

Results

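Primitive endoderm genes were followed in RNA of bovine blastocysts and, on the same arrays, in RNA of granulosa cells. The set was GATA4, SOX17, PDGFRA, FN1, HNF4A, FOXA2 and AFP, and every probe that the array's annotation pairs with one of these symbols was taken, whatever its signal. This gave 11 probes for 7 genes, of 43794 probes and 15212 named genes on the array. PDGFRA and HNF4A had 3 probes each and the other genes 1 each. The blastocysts came from abattoir oocytes of follicles 3 to 6 mm wide, fertilised in vitro with semen of 3 bulls, grown in medium with 0.8% albumin and frozen 7 days after fertilisation. The granulosa cells, which line the ovarian follicle and feed the oocyte, came from lactating cows at day 8 to 11 of the oestrous cycle. Their follicles over 5 mm were aspirated, follicle-stimulating hormone (FSH) was begun 36 h later, 6 injections of 40 mg brought the dose to 240 mg, and cells were harvested 44 h after the last one. Both sources were Holstein, and neither group is untreated or isogenic. Each of the 6 arrays carried amplified RNA of both sources, with blastocyst RNA in Cy3 on 3 arrays and in Cy5 on the other 3, and the same-numbered arrays of opposite dye make 1 of 3 replicates. A replicate is thus 1 blastocyst pool set against 1 granulosa pool. The labels do not number the embryos or cows behind a pool, and the p-values reflect only how far these pools lie apart, part of which may be technical.

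In the inner cell mass of the blastocyst, cells divide between the epiblast, which forms the fetus, and the primitive endoderm (hypoblast), which forms the yolk sac lining. In the mouse, FGF4 from epiblast precursors acts through FGF receptors and MAP kinase to favour primitive endoderm, GATA6 comes on early, and SOX17, GATA4 and the receptor PDGFRA follow. HNF4A and FOXA2 are transcription factors of the visceral endoderm that derives from it, AFP is the fetal serum protein that this tissue secretes, and FN1 (fibronectin) is a matrix protein laid down under it. None of the samples was isolated primitive endoderm. Several of these genes are also used by follicle cells: GATA4 is a known regulator of steroidogenic genes in granulosa cells, and PDGFRA marks mesenchyme, theca included. GATA6, the earliest marker, was not analysed here.

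Between 65.6% and 76.7% of all probes were detected above background in blastocyst RNA on an array and between 57.0% and 78.4% in granulosa RNA. Background here means the 95th percentile of 153 negative control spots on the same array in the same dye, called the limit below, and values are given as intensity (raw mean minus local background) or as multiples of that limit. The labels were set against markers: NANOG and POU5F1, pluripotency factors of the inner cell mass, were above background on 6 of 6 blastocyst arrays and 0 of 6 granulosa arrays (at least 32.0-fold higher, adjusted p = 0.0107, and at least 8.29-fold higher, adjusted p = 0.0048, by limma). INHA, the inhibin subunit that granulosa cells secrete, gave a log2 ratio of -6.68 ± 0.15 (SD, n = 3), with raw values over 30000 on 4 of 6 arrays, so that ratio and SD may both be understated. CYP19A1, the oestrogen-making aromatase, was at -2.82, -1.13 and -5.73 in the 3 replicates, so the granulosa pools were not alike in this marker (normalized log2 levels of 10.4, 8.7 and 13.1 in pools 1 to 3). FSHR, the FSH receptor, stood at -1.79 ± 1.34 (adjusted p = 0.141). Precision is limited throughout by having 6 arrays, and in RNA of whole tissue fewer cells of a type cannot be told apart from less RNA per cell.

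Several of the genes were bright in the embryo, and the granulosa pools shared them to very different degrees. GATA4, the bright PDGFRA probe, FN1 and the bright HNF4A probe exceeded the limit at least 10 times on all 6 blastocyst arrays. Of these 4 probes only GATA4 did so on all 6 granulosa arrays. The share of all probes that reach 10 times the limit is not given here, so the 2 counts describe these probes only. HNF4A and the bright PDGFRA probe were bright in granulosa pool 2 and far dimmer in pools 1 and 3, and FN1 was bright in pools 1 and 2 and near the limit in pool 3. SOX17, AFP and 4 further probes of PDGFRA and HNF4A stayed under 3 times the limit on every array of both sources, 6 of the 11 probes in all. FOXA2 was near the limit in blastocysts and in granulosa pools 1 and 3, and lay at 2.44 times the limit or more in granulosa pool 2.

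By the count of arrays above the limit, 9 of 11 probes were present in blastocyst RNA on at least 3 arrays, against 75% of all probes. In granulosa RNA 8 of 11 were present, against 74.9%, and in both RNAs 8 of 11, against 69.9%. These shares lie near those of the whole array. SOX17 enters all of these counts, though each RNA exceeded the limit only on the 3 arrays where it carried Cy3. In granulosa RNA AFP too was above the limit on the 3 Cy3 arrays alone. On all 6 arrays, 8 probes were above the limit in blastocyst RNA and 3 in granulosa RNA. The matching shares of all probes are not given here, so these 2 counts are not read as a result about the set. AFP and PDGFRA EMBV3_37263, among the 8, were as low as 1.05 times the limit in blastocysts.

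**Figure D1:**
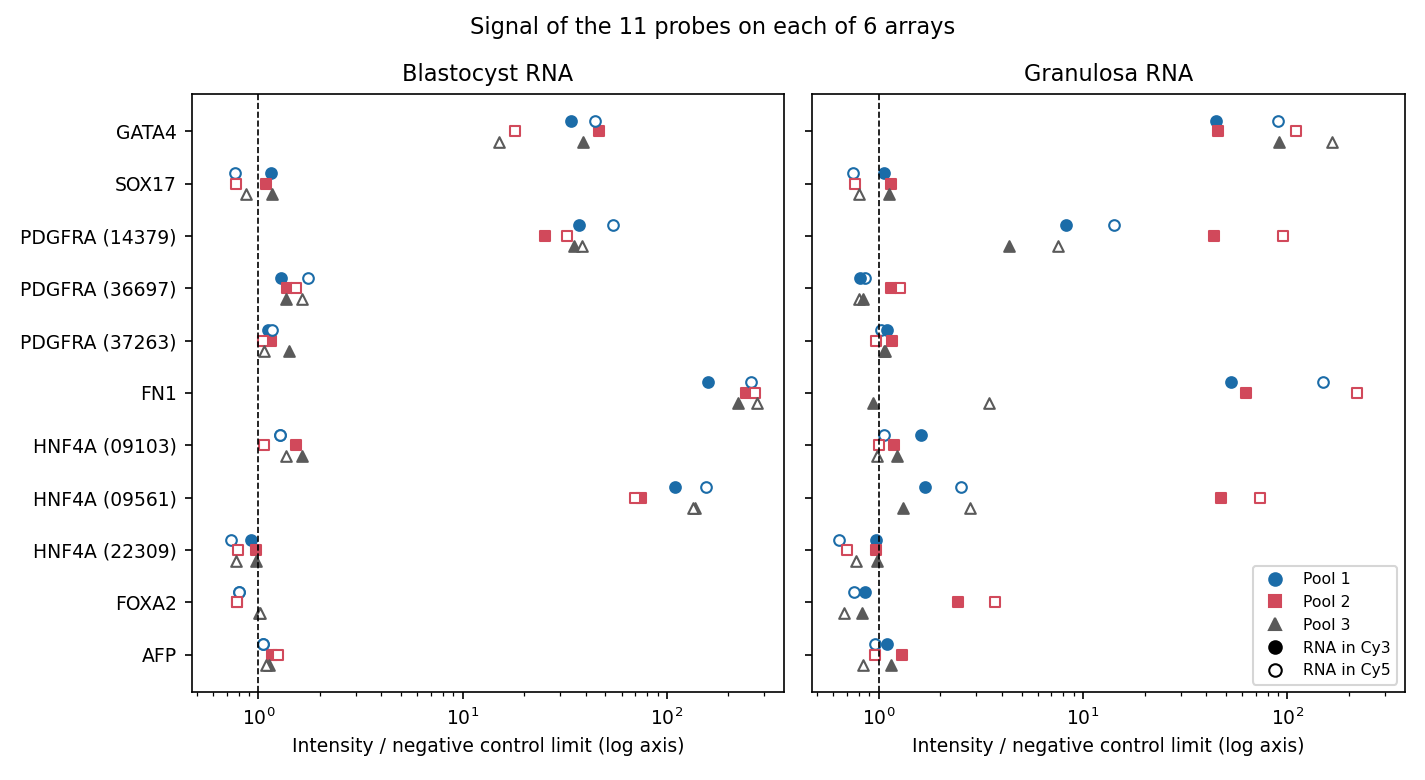
Each point is a probe on 1 array, as intensity over the negative control limit of that array and dye (log axis), in blastocyst RNA (left) and granulosa RNA (right); shapes mark the pools, filled points Cy3, open points Cy5, and the dashed line is the limit. On the left 4 probes sit at over 10 times the limit on all arrays, and on the right the squares of pool 2 stand far right of the others for HNF4A (EMBV3_09561), PDGFRA (EMBV3_14379) and FOXA2.

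GATA4, a zinc finger transcription factor, was bright in every pool of both sources. In blastocyst RNA its intensity was 7884, 6665 and 6485 in replicates 1 to 3 in Cy3 and 6606, 2468 and 2049 in Cy5. In granulosa RNA on the same arrays it was 11638, 14588 and 21832 in Cy5 and 10570, 13948 and 22663 in Cy3. By intensity, granulosa RNA was brighter than blastocyst RNA on all 6 arrays and the groups did not overlap. In multiples of the limit they did overlap. In replicate 1 with blastocyst RNA in Cy5, blastocyst RNA stood at 44.67 times the limit and granulosa RNA at 44.52. The share of all probes without overlap is not given here, so this describes GATA4 only. The log2 ratio of blastocyst over granulosa was -0.67, -1.86 and -2.51, that is 1.59-, 3.62- and 5.72-fold lower in blastocysts. Its size differed with the dye, with a mean ratio of -1.20 with blastocyst RNA in Cy3 and -2.16 with it in Cy5. In replicate 3 the 2 arrays gave -1.71 and -3.32. The mean of -1.68 ± 0.94 (SD, n = 3) did not pass the test (limma, adjusted p = 0.0878, unadjusted p = 0.0228). The probe passed when the replicate number was a block on the 6 arrays (adjusted p = 0.00982, and 0.0290 with a dye term) or without normalization within arrays (-1.69, adjusted p = 0.0492). The block without a dye term had an estimated within-pair correlation of -0.0028 and so in effect counted the 6 arrays as independent, while with the dye term the correlation was 0.66. Over 13 alternatives the adjusted p ran from 0.00982 to 0.30. The size of the ratio itself differed between replicates (F test over the 6 arrays, adjusted p = 0.00287).

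HNF4A, a nuclear receptor of endoderm and liver, was bright through probe EMBV3_09561, and its ratio was large in replicates 1 and 3. Its intensity in blastocyst RNA was 25628, 10725 and 22980 in Cy3 and 22878, 9507 and 18325 in Cy5. In granulosa RNA it was 328, 9725 and 369 in Cy5 and 399, 14515 and 326 in Cy3. Blastocyst RNA was high on all 6 arrays, while granulosa RNA was high on the 2 arrays of pool 2 and within 3 times the limit on the other 4. The log2 ratios of 6.15, -0.32 and 6.33 are 71.0-fold higher, 1.25-fold lower and 80.3-fold higher in blastocysts. The mean of 4.05 ± 3.79 (SD, n = 3) did not pass (limma, adjusted p = 0.198). It was 6.24 without replicate 2 (adjusted p = 0.0545). With the replicate block alone, which in effect counted 6 independent arrays, it passed (adjusted p = 0.0325), and with the block and a dye term it did not (adjusted p = 0.0575). Its 13 alternatives gave adjusted p from 0.0325 to 0.472.

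The other HNF4A probes did not share that signal. EMBV3_09103 ran from 1.07 to 1.64 times the limit in blastocyst RNA and from 0.985 to 1.61 in granulosa RNA (log2 ratio 0.18 ± 0.31, adjusted p = 0.424). EMBV3_22309 was above the limit on no array of either source and was not tested. The transcripts that the 3 probes read were not looked up.

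PDGFRA, the receptor for PDGF-A that the nascent primitive endoderm carries in the mouse, was bright through probe EMBV3_14379. Blastocyst RNA gave 8613, 3635 and 5912 in Cy3 and 8071, 4439 and 5222 in Cy5. Granulosa RNA gave 1840, 12613 and 988 in Cy5 and 1953, 13297 and 1083 in Cy3. Blastocyst RNA was the brighter one in replicates 1 and 3 and granulosa RNA in replicate 2, so the groups overlapped. The log2 ratios were 2.13, -1.76 and 2.59, with a mean of 0.99 ± 2.39 (SD, n = 3, limma, adjusted p = 0.545) and of 2.36 without replicate 2 (adjusted p = 0.0605). Probe EMBV3_36697 showed the same order at far lower signal: 1.28 to 1.76 times the limit in blastocysts, and in granulosa RNA above the limit on the 2 arrays of pool 2 alone. Its log2 ratios of 1.00, 0.28 and 1.11 averaged 0.80 ± 0.45 (adjusted p = 0.0918). The mean ratio was 0.35 with blastocyst RNA in Cy3 and 1.25 with it in Cy5. With the replicate block in limma the adjusted p was 0.0343, and 0.0385 with a dye term. As its mean ratio stayed under 1, the probe did not pass there. Probe EMBV3_37263 lay at 1.05 to 1.42 times the limit in blastocysts and 0.967 to 1.16 in granulosa cells (0.12 ± 0.10, adjusted p = 0.271).

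FN1 was at the top of the scale in every blastocyst sample. Its intensity was 36873, 34942 and 37259 in Cy3 and 38285, 36811 and 37860 in Cy5, with raw values over 30000 throughout, near the scanner's upper limit. In granulosa RNA it was 19393, 29210 and 454 in Cy5 and 12604, 19216 and 234 in Cy3. Granulosa pools 1 and 2 were thus bright and pool 3 was at or just above the limit (0.940 and 3.45 times), and blastocyst RNA was higher on all 6 arrays. FN1 measured 2.25-fold higher in blastocysts in replicate 1 and 1.41-fold higher in replicate 2. With the blastocyst side near the scanner limit these folds may be understated. In replicate 2 granulosa RNA was itself bright, at 29210 in Cy5. No fold is given for replicate 3, where 1 of 2 granulosa arrays was below the limit. The measured log2 ratios of 1.17, 0.49 and 7.48 averaged 3.05 ± 3.85 (SD, n = 3) and did not pass (limma, adjusted p = 0.293). Without replicate 3 the mean was 0.83.

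**Figure D2:**
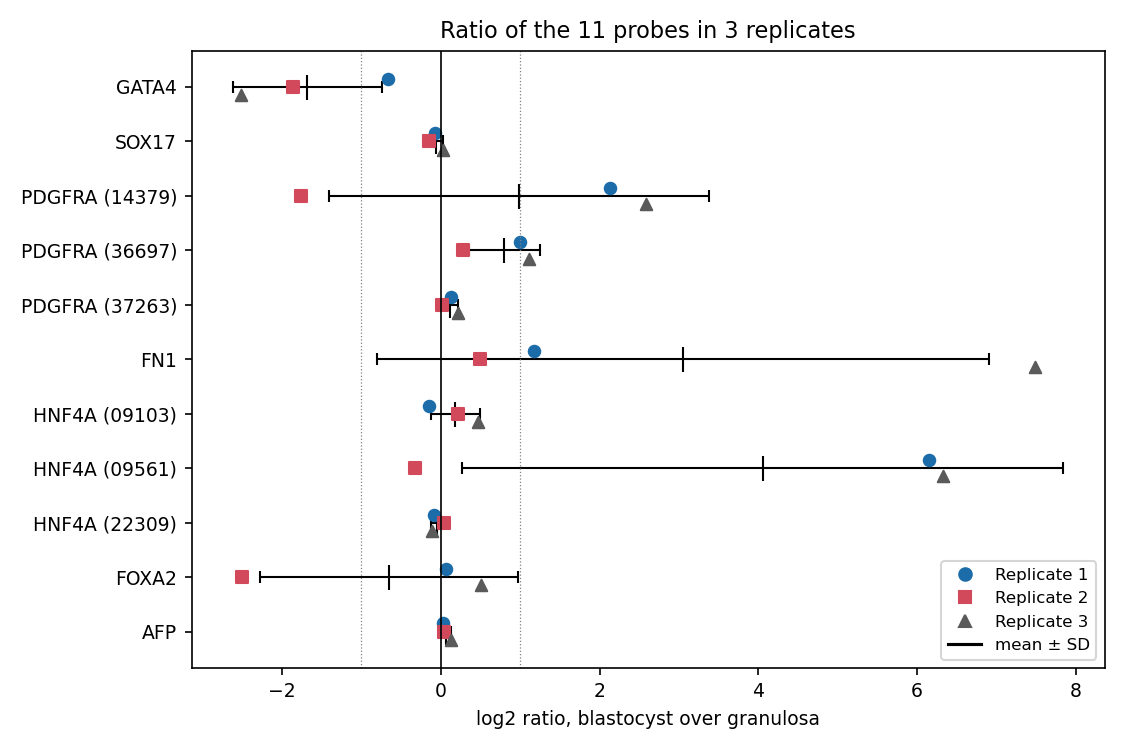
Log2 ratio of blastocyst over granulosa RNA for the 11 probes; symbols are the 3 replicates, each the mean of 2 arrays of opposite dye, and bars the mean ± SD. Dotted lines mark a ratio of 1 in either direction; HNF4A (EMBV3_09561), PDGFRA (EMBV3_14379) and FOXA2 have replicate 2 far left of the others, and FN1 has replicate 3 far right.

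SOX17, a transcription factor that defines endoderm, could not be separated from background. Blastocyst RNA gave 268, 156 and 196 in Cy3 and 114, 106 and 118 in Cy5. Granulosa RNA gave 96.8, 101 and 105 in Cy5 and 251, 352 and 278 in Cy3. Each RNA was above the limit on the 3 arrays where it carried Cy3 and below it on the 3 where it carried Cy5, at 0.768 to 1.17 times the limit in blastocysts and 0.749 to 1.15 in granulosa cells. The mean ratio was 0.37 with blastocyst RNA in Cy3 and -0.50 with it in Cy5, which leaves -0.07 ± 0.09 (SD, n = 3, adjusted p = 0.470) after averaging. AFP lay at 1.05 to 1.25 times the limit in blastocysts and 0.841 to 1.30 in granulosa cells, there above it on the 3 Cy3 arrays, with a ratio of 0.07 ± 0.06 (adjusted p = 0.402). A difference in SOX17 or AFP was not detectable at this signal.

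FOXA2, a forkhead factor of the endoderm, was above the limit on 2 of 6 arrays in each source and was not tested. In blastocysts it ranged from 0.781 to 1.02 times the limit. In granulosa pool 2 it reached 3.70 and 2.44 times the limit (intensity 492 in Cy5 and 746 in Cy3), against 0.676 to 0.859 in the other pools. The log2 ratios were 0.06, -2.51 and 0.50.

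In the test against 0, 9 of the 11 probes were entered and none passed, which asked for an adjusted p under 0.05 and a log2 ratio no smaller than 1 in either direction (limma with Benjamini-Hochberg adjustment over 35050 probes). Of all probes tested 10.1% passed, 4.92% towards blastocysts and 5.17% towards granulosa cells. Unadjusted, 2 of the 9 had a p under 0.05, GATA4 and PDGFRA EMBV3_36697. The ratio differed between the 3 replicates for 6 of 9 probes (F test, adjusted p under 0.05), against 37.8% of all probes. Each channel was then fitted separately, an alternative added after the data had been seen. Granulosa pools differed by at least 1 on the log2 scale for 3 of 9 probes, against 9.23% of all, and blastocyst pools for 1 of 9, against 1.66%. The granulosa ones were PDGFRA EMBV3_14379 (normalized log2 levels of 10.89, 13.70 and 9.85 in pools 1 to 3, adjusted p = 4.1e-08), FN1 (13.99, 14.60 and 7.73, adjusted p = 1.17e-05) and HNF4A EMBV3_09561 (8.43, 13.59 and 8.01, adjusted p = 1.14e-05). In blastocysts PDGFRA EMBV3_14379 was the one that differed (13.02, 11.94 and 12.44, adjusted p = 0.00106). For GATA4, where the ratio differed between replicates, neither the blastocyst pools (12.8, 11.98 and 11.8, adjusted p = 0.413) nor the granulosa pools (13.5, 13.8 and 14.4, adjusted p = 0.408) passed on their own.

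Granulosa pools were compared after normalization within and between arrays, which evens out general differences in brightness. Whether pool 2 was brighter in general was therefore not tested. The array held 3235 probes whose level varied among the granulosa pools, and pool 1 was the highest for 1054 of them, pool 2 for 1170 (36.2%) and pool 3 for 1011. Markers of other cell types were set beside the members as signal over the limit summed over each list's tested genes. Granulosa markers (14 tested) summed to 51.0, 68.7 and 64.9 in blastocyst pools 1 to 3 and to 634.8, 499 and 806 in granulosa pools 1 to 3. Theca and stroma markers (14 tested) summed to 63.2, 91.5 and 75.4 in blastocysts and to 398, 484 and 68.5 in granulosa pools. Without COL3A1, the leading gene, the granulosa sums were 191, 301 and 60.8. Of the 14 genes 8 differed between granulosa pools, against 14% of all named genes. By its sum the first list was thus above blastocysts in every granulosa pool, and the second in pools 1 and 2 only. Single genes of the second list kept signal in pool 3, with COL3A1, LUM and DCN at normalized log2 levels of 10.4, 10.3 and 9.3 there. Endothelial markers (8 tested) summed to 9.02, 9.48 and 9.01 in blastocysts and to 51.1, 34.6 and 8.46 in granulosa pools. Leukocyte markers (10 tested) summed to 12.1, 11.5 and 11.8 in blastocysts and to 252, 22.0 and 15.05 in granulosa pools, or to 48.0, 18.4 and 10.9 there without LYZ (lysozyme).

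The theca and stroma sum, like FN1, was high in granulosa pools 1 and 2 and low in pool 3. LUM, a collagen-binding proteoglycan of stroma, had normalized log2 levels of 11.9, 14.1 and 10.3 there. CYP17A1, the androgen-making enzyme of theca, stayed at 7.2, 7.1 and 7.1 in the 3 granulosa pools. PECAM1, an endothelial adhesion molecule, was above background on 4 of 6 granulosa arrays with a ratio of 0.01. Of the 8 tested endothelial genes 3 varied among the granulosa pools, against 14% of all named genes. These 3, named after their values were seen, were high in pools 1 and 2 and low in pool 3. KDR, a VEGF receptor, was at 12.2, 11.8 and 6.8, EMCN at 10.7, 9.4 and 7.1 and TEK at 9.6, 9.9 and 7.6. VWF had a like order over a smaller range (8.2, 8.1 and 7.2). CDH5 (7.2, 7.3 and 7.3), ESAM (7.3, 7.3 and 7.1) and CLDN5 (7.8, 7.7 and 7.5) were nearly level. PTPRC, the pan-leukocyte antigen, had levels of 10.9, 8.7 and 8.5 in granulosa pools 1 to 3. TCF21, a mesenchymal factor, passed towards granulosa cells (-1.91 ± 0.44, adjusted p = 0.0201). Its levels in granulosa pools 1 to 3 were 10.0, 8.7 and 9.3, lowest in pool 2. The part of these cell types in the members' pool differences was not tested.

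Trophectoderm markers (13 tested) summed to 622, 954 and 892 in blastocyst pools and to 34.8, 87.2 and 20.3 in granulosa pools. From one granulosa pool to another 5 of them varied, against 14% of all named genes. Of the 5, 4 had their peak in pool 2, against 37.97% of the named genes that varied. Inner cell mass markers (8 tested) summed to 122, 119 and 172 in blastocysts and to 118, 183 and 15.7 in granulosa pools. Most of the granulosa sum of the second list came from KLF4, a factor that many tissues use, and without it the other 7 genes summed to 59.5, 66.7 and 103 in blastocysts and to 6.59, 8.26 and 6.53 in granulosa pools. Without KRT8, an epithelial keratin and the leading gene of the first list in granulosa RNA, its other 12 summed to 419, 680.0 and 646 in blastocysts and to 21.6, 29.8 and 16.3 in granulosa pools. KRT8 had normalized log2 levels of 11.1, 13.5 and 8.8 in granulosa pools 1 to 3, KRT18, its partner keratin, 8.6, 9.6 and 7.8, and TFAP2A, a trophectoderm factor, 8.5, 9.8 and 7.3. These were named after their values were seen. PTGS2, of the same list, varied too but peaked in pool 1 (9.1, 7.9 and 6.7). GATA2 (8.1, 7.8 and 7.2) and DLX4 (7.7, 7.3 and 7.1) were also highest in pool 1. NANOG, POU5F1, DPPA3 (an oocyte and pluripotency factor) and IFNT (interferon tau, the trophectoderm's pregnancy signal) were above the limit on 0 of 6 granulosa arrays. DPPA3 was at least 40.8-fold and IFNT at least 23.0-fold higher in blastocysts (adjusted p = 0.0048 and 0.0126). The other tested probe of DPPA3 gave a log2 ratio of 0.31 and did not pass.

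**Figure D3:**
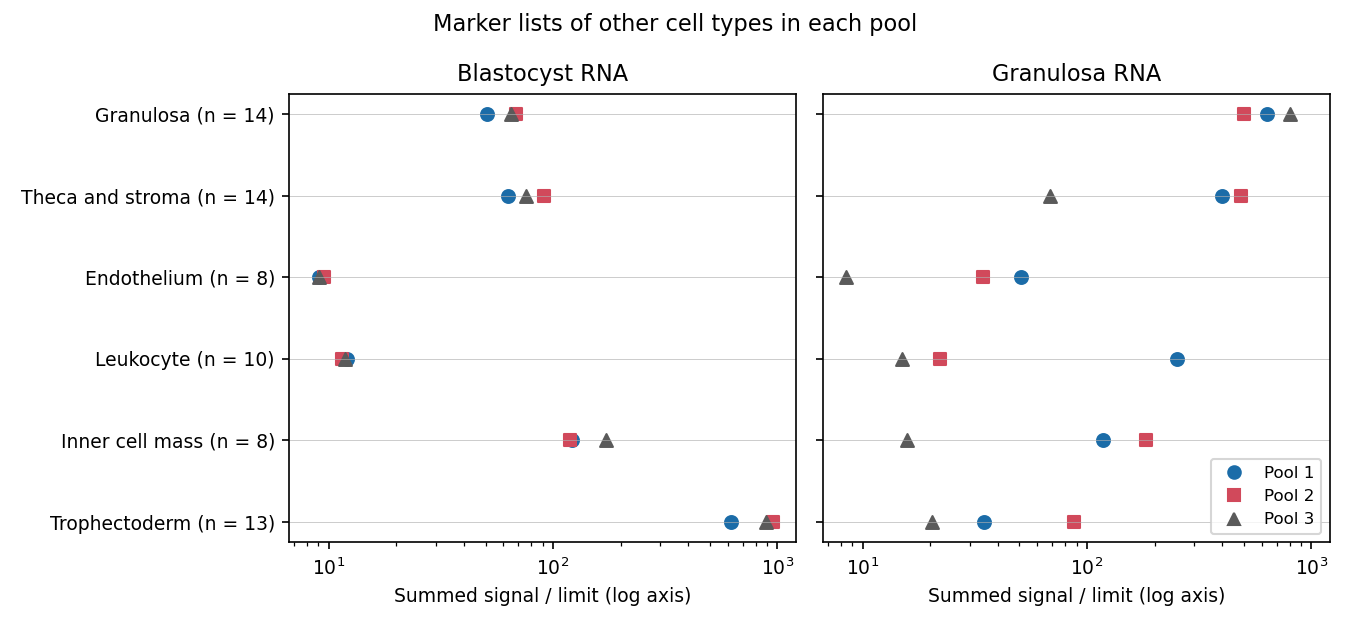
Summed signal over the limit (log axis) of 6 marker lists in the 3 pools of blastocyst RNA (left) and granulosa RNA (right); n is the number of tested genes. In granulosa RNA pool 3 has the lowest theca and stroma, endothelial and leukocyte sums, and pool 1 the highest leukocyte sum (252).

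The genes that work with the set were read from 6 lists of 91 genes, of which 71 were tested and 10 passed (14.1%, against 13.3% of all named genes), 5 towards blastocysts and 5 towards granulosa cells (5.69% and 7.65% of all named genes). The share is near the background. A gene stands by its brightest tested probe. Without replicate 1, 3 genes of the lists passed, and without replicate 2 none did, as for the whole array, where 8505 probes then had an unadjusted p under 0.05. Without replicate 3, 10 passed, 6 of them the same genes. GATA6, LRP2, CTSL, TGFBI and ZFPM2 were not analysed here.

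Among 9 tested transcription factors of the endoderm and its neighbours, 2 rose in blastocysts and none fell, with a list median of 0.14 against -0.02 for all named genes. OTX2, a factor of epiblast and visceral endoderm in the mouse, was above background on 6 of 6 blastocyst arrays and 0 of 6 granulosa arrays, at least 2.52-fold higher (log2 ratio 1.94 ± 0.16, adjusted p = 0.00661). TBX3, a T-box factor, rose by 1.06 ± 0.02 (adjusted p = 0.0067), and its other probes gave 0.04 and 2.48. Its ratio was 0.86 without background correction, 0.92 with subtraction, 0.93 without normalization within arrays and 0.97 with the deposited net intensities, so that it did not pass there.

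In the FGF and MAP kinase list 1 of 15 tested genes rose and none fell (median -0.05). That was PTPN11, the SHP2 phosphatase that links receptors to MAP kinase (1.26 ± 0.08, adjusted p = 0.00712, other probe 0.13). FGF4, the ligand, gave -0.05 (adjusted p = 0.567), and the receptors gave 0.02 for FGFR1 (adjusted p = 0.775) and 0.44 ± 0.99 for FGFR2 (adjusted p = 0.519). The sign of FGFR1 turned without normalization. FGFR2 had normalized log2 levels of 7.7, 8.9 and 7.3 in granulosa pools 1 to 3, the order seen for HNF4A and PDGFRA.

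In the PDGF and KIT list 1 of 8 tested genes rose and 1 fell (median 0.14). PDGFA, the ligand of PDGFRA, rose in blastocysts in every replicate (3.45, 1.72 and 2.77, mean 2.65 ± 0.87, adjusted p = 0.0355). PDGFC, another ligand of that receptor, fell (-3.89 ± 1.08, adjusted p = 0.0261), while its other probes gave -1.11 and -0.05. PDGFRB, the sister receptor, stood at 0.08 (adjusted p = 0.410), and this sign turned without normalization.

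In the basement membrane list none of 13 tested genes rose and 3 fell (median -0.22). LAMA1, the laminin chain of early basement membranes, fell by 3.15 on the log2 scale (SD 0.70, adjusted p = 0.0184). P4HA1, a collagen prolyl hydroxylase, fell by 2.17 (SD 0.54, adjusted p = 0.0228, other probes -0.33 and -0.27), and SERPINH1, a collagen chaperone, by 1.73 (SD 0.54, adjusted p = 0.0334). SERPINH1 was above background on 1 of 6 blastocyst arrays, so its difference is against a side that was mostly not measured. COL4A1 (-2.25 ± 1.98, adjusted p = 0.181), SPARC (-2.10 ± 1.24, adjusted p = 0.0967) and LAMB1 (-1.16 ± 0.96, adjusted p = 0.165) did not pass, except SPARC without normalization (-2.13, adjusted p = 0.0422), nor did LAMC1 (0.51 ± 0.36, adjusted p = 0.135, other probe -0.94). COL4A2 was above background on 0 of 6 arrays of either source. COL4A1 in granulosa RNA was at 13.2, 13.6 and 10.2 in pools 1 to 3, high in the same pools as FN1. In this list 7 of the 13 genes varied among the granulosa pools, against 14% of all named genes. Of the 7, 1 was highest in pool 1, 4 in pool 2 and 2 in pool 3, where FN1 was low. Those 2 were LAMA1 (14.3, 13.6 and 14.7) and P4HA1 (9.5, 10.0 and 10.9).

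Among 8 tested fibronectin partners 1 rose and 1 fell (median -0.27). SDC4, a matrix co-receptor, rose by 1.03 ± 0.17 (adjusted p = 0.0147). In the 4 settings in which TBX3 did not pass, SDC4 was under 1 too (0.77 to 0.89). TGM2, a matrix cross-linking enzyme, fell (-2.06 ± 0.33, adjusted p = 0.0119). The fibronectin receptor chains ITGA5 (-0.01, adjusted p = 0.864, above 0 with background subtraction) and ITGB1 (-0.42, adjusted p = 0.0941) did not pass.

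In the list of secreted and uptake proteins of yolk sac endoderm none of 18 tested genes passed (median -0.06). DAB2, the endocytic adaptor of primitive endoderm in the mouse, had a ratio of 4.70 ± 2.05 (adjusted p = 0.0575), with blastocyst raw values over 30000 on 6 arrays, and 2 of its 3 other tested probes passed (ratios 1.13 to 3.43 over the 3). It passed with median centring (4.90, adjusted p = 0.0387) and without normalization (4.71, adjusted p = 0.0197). TTR, a carrier of thyroid hormone, gave 0.08 (adjusted p = 0.555), with a sign that turned without normalization. APOA1, a lipoprotein component, gave -0.69 ± 1.14 (adjusted p = 0.395) and was highest in granulosa pool 2 (7.9, 9.5 and 7.7). In this list 5 of 18 genes varied among the granulosa pools, against 14% of all named genes, and 4 of the 5 peaked in pool 2, against 37.97% of the named genes that varied. BMP2 (8.7, 13.9 and 8.3) and the iron carrier TF (8.5, 11.7 and 8.6), chosen after their values were seen, are 2 of these.

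**Figure D4:**
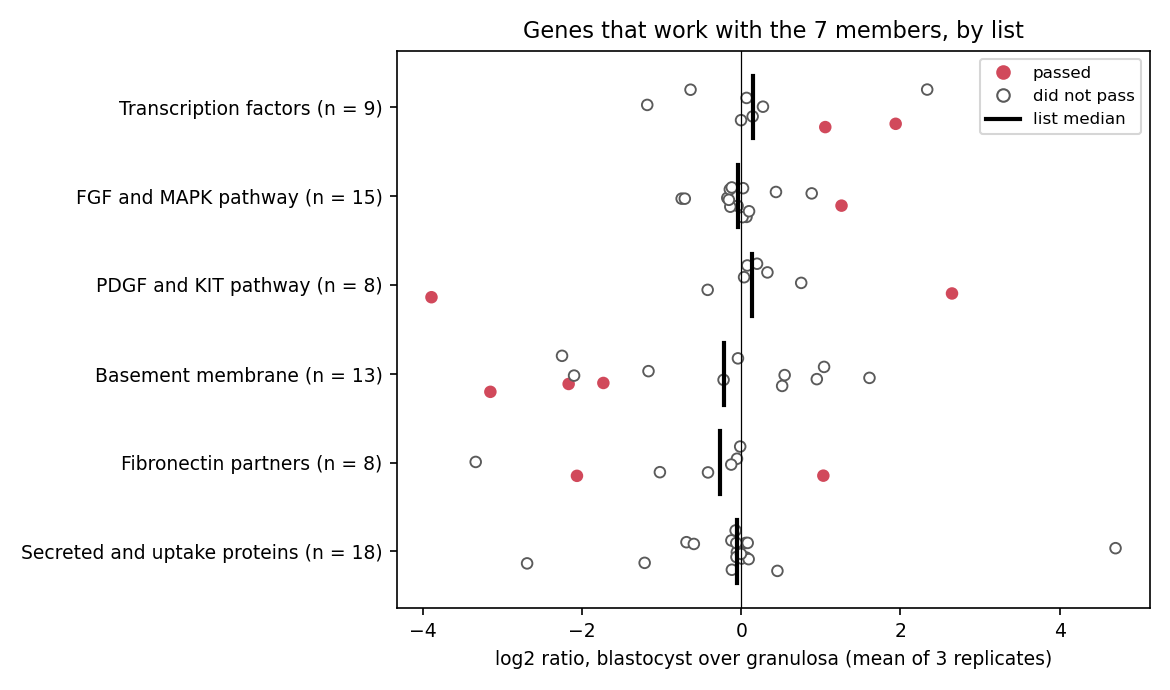
Mean log2 ratio of blastocyst over granulosa RNA of each tested gene in the 6 lists, by its brightest probe; filled points passed the test and the thick line is the list median. The basement membrane list has 3 filled points, all left of 0, and the secreted and uptake list has none, with DAB2 as its open point at 4.70.

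The named genes most like each bright member were found by the root mean square (RMS) difference of the log2 ratio over the 6 arrays, among 12465 genes. For GATA4 they were PTGFRN (0.520), ATG13 (0.528) and PKN3 (0.620). For HNF4A EMBV3_09561 they were EPCAM, an epithelial adhesion molecule (1.06), PERP, a desmosome protein (1.65), and EDN3, an endothelin (1.68). EPCAM stood at 9.52, 14.54 and 7.34 in granulosa pools 1 to 3, PERP at 8.41, 11.91 and 8.11, and EDN3 at 7.54, 11.17 and 7.16. All were highest in pool 2. They were chosen for likeness to the HNF4A ratios, so this shared order is no separate result. For FN1 they were IL18 (1.72), COBLL1 (1.73) and CD99 (1.87). For PDGFRA EMBV3_14379, whose mean ratio was just short of 1 and which was added after the data had been seen, they were RHOU (0.560), SLC44A4 (0.615) and CDH26 (0.643).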

How the data were processed

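Per the labels' protocols, total RNA was amplified to antisense RNA and labelled chemically with Cy3 and Cy5. The deposited files hold a raw mean intensity and a median local background intensity per spot at 532 nm (Cy3) and 635 nm (Cy5), per the file headers. The authors' deposited value table, a score, divides one channel's log2 net intensity by the other's and was checked but not used. It carries a minus sign on the blastocyst-titled arrays, is no log ratio, and leaves neither scale, centring nor direction unknown. Its column medians are -0.998, -0.998 and -1.00 on the blastocyst-titled arrays and 1.00, 0.999 and 1.00 on the others. Scanner, software and genome build: not given in the sources used here. No coordinates are printed.

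Intensities were corrected with normexp (offset 50), normalized within arrays by loess with control spots at weight 0, and turned to log2 ratios of blastocyst over granulosa in limma 3.58.1 (R 4.3.3; figures with matplotlib 3.10.9). The 8 spots without a probe name were left out. A probe was tested where at least 3 of 6 arrays exceeded the limit in either source (35050 of 43794 probes). An absolute log2 ratio of 1 and an adjusted p under 0.05 were required. Same-numbered arrays were averaged and 3 replicates tested against 0 on 3.34 degrees of freedom. Channel levels are log2 intensities after loess and Aquantile. An "at least" fold raises the dim side on each array to the lowest signal above background where its own is lower.

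The numbers, taken from the titles, pair the arrays: deviations correlated at 0.85 to 0.93 for the same number and at -0.59 to -0.20 otherwise. Symbols were updated through RefSeq (20068 of 21790 named probes current, 1646 through a synonym, 76 unmatched); 22004 probes have no symbol here. The members and the gene lists were chosen with earlier results of these data known. Genes named are the members, up to 3 per list and direction that passed with the largest ratios, a fixed set of pathway and cell markers, and the 3 most alike genes. The procedure was tested on simulated data. Some genes of the lists are not reported here.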

Additional observations from a re-analysis of the deposited data

Results flagged for a closer look

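The FOXA2 probe was left out of the test because it exceeded the limit of the negative controls on 2 of 6 arrays in each source. In blastocyst RNA on the 2 arrays of replicate 2 it stood at 0.782 times that limit, and in granulosa RNA of pool 2 on the same arrays at 3.01 times. The other granulosa pools gave 0.806 times in pool 1 and 0.750 times in pool 3. It is given here as signal in a probe that the comparison did not use.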

How the results depend on the processing

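Of 117 alternative ratios of member probes, 107 kept their sign and their side of the threshold, 6 turned in sign and 4 passed that had not. SOX17, at -0.07, became 0.0022 without background correction, 0.0151 with plain subtraction and 0.00857 with the deposited net intensities. Without normalization within arrays PDGFRA EMBV3_37263 became -0.080, HNF4A EMBV3_09103 -0.018 and AFP -0.16, and the median of all tested probes was -0.20 against -0.01; GATA4 then passed (-1.69), which makes 1 member probe called. The replicate block made 2 member probes pass, GATA4 (-1.68) and HNF4A EMBV3_09561 (4.05), and the block with a dye term 1, GATA4 (-1.68), with 19 genes of the related lists passing. The block changed no other member's call. With the highest negative control spot as the limit 4 member probes were present in granulosa RNA and in both RNAs, and with all 6 arrays required 3 were. Leaving out 1 replicate gave 0 to 2538 probes called of all and 0 to 10 related genes, 0 in both cases without replicate 2, where 3 member probes had an unadjusted p under 0.05; fewer samples are by construction part of this. Of the calls, 48.8% were higher in blastocysts, against 56.3% with median centring and 42.3% without normalization. FN1 has no value with probes near the scanner limit left out, and SOX17 none with the filter on all 6 arrays. The cause of these changes was not tested. On 6 of 11 probes signal stayed under 3 times the limit, which limits what can be seen for those probes. The 4 probes at 10 times the limit or more on all blastocyst arrays did not pass the main test either.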
